A study of Sus scrofa with 19 samples.

Results

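The collagen genes of pig myocardium, given as left ventricle in the methods, were described across models of myocardial fibrosis (MF). The family was taken as every gene whose symbol, in the authors' table or in the pig annotation, is COL, a type number, A and a chain number, and which had counts. Of 44 such genes named in either source, 42 were in the count files and 41 had counts, out of 19296 genes with counts among 25879 listed. By the kind of assembly they form, 11 were fibrillar, 5 basement membrane, 9 FACIT (fibril-associated collagens with interrupted triple helices) and 16 other types. COL6A2 is listed at 0 in all 19 libraries, and the expression of COL4A1 and COL19A1 was not analysed here.

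Messenger RNA of the myocardium was sequenced from 19 female large white pigs, with 1 library per pig. The DOX group (n = 5) received doxorubicin, an anthracycline cytostatic, and the MYO group (n = 5) received Myocet, its liposomal form, each in 3 cycles of 60 mg/m2, with tissue of the anterior wall taken at 3 months. RemoLV pigs (n = 3) had a 90 min balloon occlusion of the left anterior descending artery followed by reperfusion, and the remote posterior wall was taken at 6 months. Hyper pigs (n = 3) carried a 9 mm aortic stent that narrowed the growing vessel, and Control pigs (n = 3) were sham-operated, both sampled in the anterior wall at 6 months. The methods call the Control pigs of the sequencing study untreated and of matching age, whereas the labels give 3 months for DOX and MYO and 6 months for the other groups, so treatment and follow-up time cannot be told apart in any comparison across that line.

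The labels of some libraries were in conflict, and this bears on most of what follows. Each column of the authors' normalized table matched 1 count file (Spearman correlation 1.0, next best at most 0.992), but 8 of the 19 columns carried the name of another group. The columns named Control came from the 3 count files labelled RemoLV, the columns named RemoLV came from the 3 count files labelled Control, and DOX 5 and MYO 1 were exchanged. Groups below are those of the count file labels, and values under the table names are given for most comparisons that involve Control or RemoLV. The libraries labelled RemoLV also stood apart by heart chamber markers, with high atrial and low ventricular ones, although the methods give left ventricle. MYL2, the ventricular myosin light chain, was at 18.6 to 115 CPM (gene counts scaled by effective library size) in them and at 13577 to 18077 CPM in those labelled Control, whereas MYL4, its atrial counterpart, was at 6029 to 8130 against 0.594 to 3.1 CPM. Among the 10 DOX and MYO libraries the Y-linked DDX3Y was at 96.1 to 177 CPM, although the labels call all pigs female, and the other 9 libraries had at most 2 counts. Library totals were 9527710 to 20370209 counts.

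Collagens are secreted or membrane proteins in which 3 chains, each a run of Gly-X-Y triplets, wind into a rigid helix. Fibrillar types I, III and V form the tension-bearing fibres of the heart's interstitium and are made mainly by fibroblasts. Type IV forms the sheet-like network of the basement membrane around cardiomyocytes and capillaries, to which endothelial cells and cardiomyocytes contribute. FACIT collagens sit on fibril surfaces, type VI makes beaded filaments between cells and fibres, and types XV and XVIII are proteoglycan-like collagens of the basement membrane zone. In MF the interstitial types accumulate, and their transcripts are common readouts of it.

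The Gly-X-Y repeat of collagen chains can be seen in coding exons. The exons below are the first internal coding exon of 54 bases that holds an unbroken Gly-X-Y frame, in 3 fibrillar and 2 basement membrane genes whose levels are described later. They were read from the RefSeq Sscrofa11.1 genome, 5′ to 3′ on the coding strand, with each glycine codon (GGN) in capitals. They are coding exon 8 of COL1A1 (chr12:26393098-26393151, minus strand), exon 8 of COL1A2 (chr9:74184187-74184240, plus), exon 6 of COL3A1 (chr15:93571887-93571940, plus), exon 16 of COL4A2 (chr11:77119322-77119375, plus) and exon 7 of COL4A5 (chrX:89078866-89078919, plus).
COL1A1: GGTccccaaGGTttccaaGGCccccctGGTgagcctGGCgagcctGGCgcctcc
COL1A2: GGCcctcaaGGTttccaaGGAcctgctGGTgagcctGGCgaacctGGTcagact
COL3A1: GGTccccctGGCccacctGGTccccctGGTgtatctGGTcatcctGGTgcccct
COL4A2: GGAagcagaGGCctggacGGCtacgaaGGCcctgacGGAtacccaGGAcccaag
COL4A5: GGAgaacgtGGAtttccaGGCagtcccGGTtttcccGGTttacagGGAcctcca
A glycine codon opens each run of 9 bases in all 5 exons because the exons were chosen by that frame. The shares below are over the annotated collagen genes, COL4A1, COL19A1 and COL6A2 included and COL6A1, which had no entry, left out: 11 fibrillar, 10 FACIT, 6 basement membrane and 16 others. Internal coding exons of 54 bases made up 47.6% of those of the fibrillar genes (303 of 636) and 27% of those of the FACIT genes (120 of 444). They were 3.9% in the basement membrane genes (11 of 282), 6.89% in the other types (37 of 537) and 0.438% in all other annotated genes (692 of 157964). COL8A1, COL8A2 and COL10A1 had 0 internal coding exons, and COL26A1 had 0 of 54 bases among 12. 

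The windows from 220 bases before to 30 bases from the annotated start are shown for COL1A2 (chr9:74174264-74174513, plus strand) and COL4A2 (chr11:76996665-76996914, plus strand), because these genes moved differently between the groups. Letters searched on both strands were CCAAT, then the TATA element TATAAA, and the GC-rich element GGGCGG, which do not overlap here, and matches are in capitals.
COL1A2: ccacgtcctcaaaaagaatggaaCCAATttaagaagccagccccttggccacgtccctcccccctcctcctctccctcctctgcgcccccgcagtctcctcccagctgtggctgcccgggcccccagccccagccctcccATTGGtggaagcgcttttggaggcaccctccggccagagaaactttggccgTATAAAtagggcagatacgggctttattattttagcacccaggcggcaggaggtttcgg
COL4A2: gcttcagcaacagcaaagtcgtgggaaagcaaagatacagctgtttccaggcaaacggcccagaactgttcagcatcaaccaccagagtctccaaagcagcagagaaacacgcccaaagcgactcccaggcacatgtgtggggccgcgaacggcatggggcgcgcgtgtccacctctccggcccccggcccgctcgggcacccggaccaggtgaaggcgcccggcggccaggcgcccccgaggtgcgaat
The COL1A2 window held CCAAT at -197 on the plus strand, CCAAT at -80 on the minus strand and TATAAA at -29. The COL4A2 window held none of these letters. Neither did the windows of COL1A1 and COL3A1, whose levels rose with COL1A2, and that of COL4A5 held GGGCGG at -10. The COL4A2 window lies inside the annotated COL4A1 gene on the opposite strand (chr11:76858332-76997409). Over 40 members with a window, 37.5% held CCAAT, 17.5% TATAAA and 47.5% GGGCGG, beside 32.1%, 9.86% and 46.7% of 20639 promoters. A match is a description of the sequence only.

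Collagen transcripts took a larger share of all counts in the libraries of the anthracycline groups than in Control and Hyper, and the largest in those labelled RemoLV. The share was 0.355% ± 0.112 (SD, n = 3) in Control, 0.894% ± 0.119 (n = 5) in DOX, 0.902% ± 0.109 (n = 5) in MYO, 1.63% ± 0.14 (n = 3) in RemoLV and 0.4% ± 0.146 (n = 3) in Hyper. The ranges of DOX (0.757 to 1.04%) and MYO (0.812 to 1.08%) overlapped each other and lay between those of Hyper (0.232 to 0.5%) and of the libraries labelled RemoLV (1.49 to 1.77%). In bulk tissue, fewer cells of a type and less RNA per cell cannot be told apart.

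**Figure D1:**
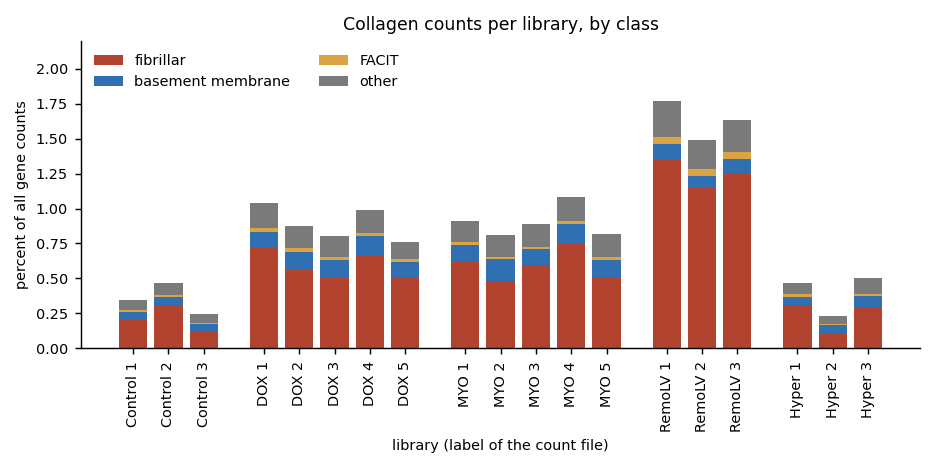
Counts of the 41 collagen genes as a percent of all gene counts, stacked by class, for each of the 19 libraries under its count file label. The libraries labelled RemoLV reach 1.49 to 1.77%, the DOX and MYO libraries 0.757 to 1.08%, and the Control and Hyper libraries at most 0.5%.

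The make-up of the collagen counts differed as well as their sum. Fibrillar genes gave 58% ± 6.52 of collagen counts in Control, 66% ± 2.74 in DOX, 65% ± 4.28 in MYO, 57.8% ± 8.58 in Hyper and 76.9% ± 0.416 in the libraries labelled RemoLV. Basement membrane genes gave 16.6% ± 2.62, 14% ± 1.74, 14.8% ± 2.63, 17.9% ± 5.67 and 5.99% ± 0.252 in the same order. Those labelled RemoLV thus lay outside the range of all other libraries for both classes, while DOX, MYO, Control and Hyper overlapped. FACIT genes gave 2.11 to 3.78% of collagen counts as group means, and the other types 14.2 to 21.6%. Per kilobase of transcript, COL3A1 was the highest member in each group, with means of 281 CPM per kb in Control, 587 in DOX, 600 in MYO, 1320 in those labelled RemoLV and 287 in Hyper. The next was COL4A2 in Control (113), MYO (191) and Hyper (116), COL1A1 in DOX (198) and COL1A2 in those labelled RemoLV (402). COL6A1 could not be placed in this order because it had no length in the reference used.

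Of the 41 genes, 30 passed the filter on low counts and were tested with edgeR's quasi-likelihood test in 1 model of the 5 groups. A gene is called higher or lower at a Benjamini-Hochberg adjusted p of at most 0.05 over all 13552 genes tested. In edgeR's F test of any difference among the 5 groups 24 of the 30 passed, beside 63.3% of all genes tested. The comparison that the label conflict leaves nearly as it is sets DOX and MYO against Hyper, since all 10 anthracycline libraries and all 3 Hyper libraries keep their side under both names. Here 19 of 30 collagen genes were higher and 0 were lower, beside 15.8% of all genes higher and 16.9% lower, and under the table names 19 were again higher and 0 lower (15.8 and 16.9% of all genes). The median log2 fold change of the 30 was 0.94, against 0.03 over all genes. By class 7 of 9 fibrillar, 2 of 3 basement membrane, 3 of 6 FACIT and 7 of 12 other genes were higher. The count was 11 without Hyper 2, the library with the smallest share of collagen counts (0.232%). COL6A3, COL6A6, COL7A1, COL8A1, COL12A1, COL15A1, COL21A1 and COL27A1 lost their call without it. The share of all genes called without Hyper 2 is not given here. DDX3Y and the follow-up time also separated these groups and cannot be told apart from the treatments. So did the numbers in the count file names, which form separate series for DOX with MYO, for RemoLV and for Hyper with Control. What these numbers stand for is not given by the labels. Library totals were 10147011 to 15975201 counts in DOX and MYO and 15634520 to 16359107 in Hyper.

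**Figure D2:**
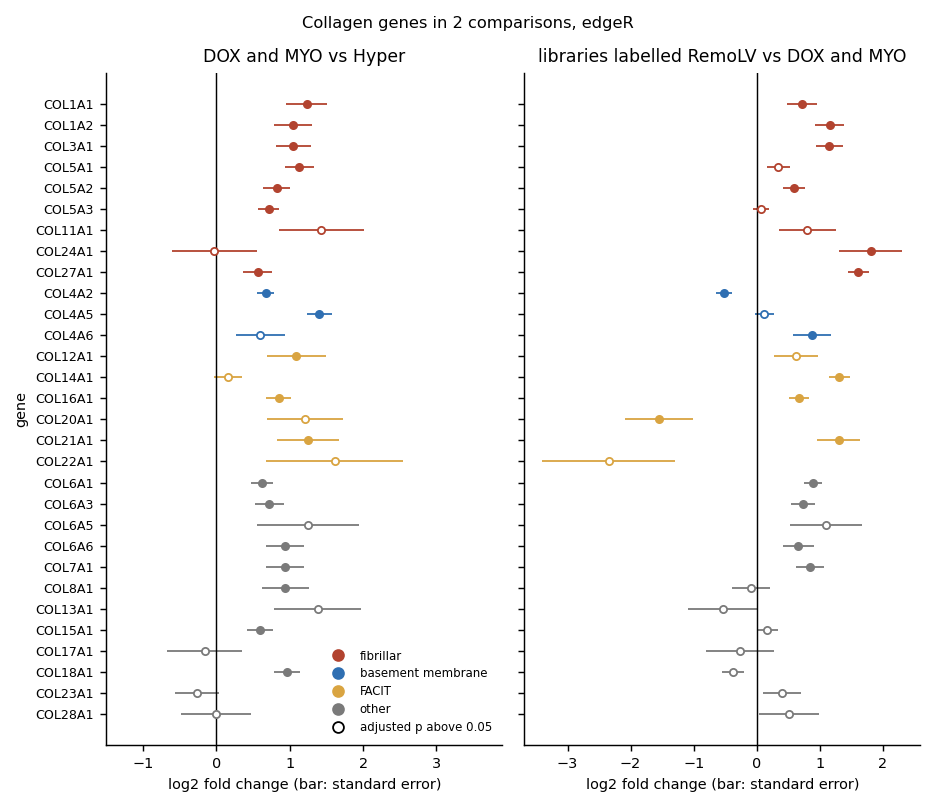
Fold changes on the log2 scale with standard errors for the 30 tested collagen genes, coloured by class, with open symbols for an adjusted p above 0.05. In DOX and MYO against Hyper 19 genes were higher, and in the libraries labelled RemoLV against DOX and MYO 14 were higher and 2, COL4A2 and COL20A1, were lower.

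Against the libraries labelled Control, 17 of 30 members were higher in DOX and 0 lower (21% and 21.1% of all genes), with a median log2 fold change of 0.85. In MYO 16 were higher and 0 lower (20.7% and 21.7% of all genes), with a median of 0.76. In the libraries labelled RemoLV 19 were higher and 0 lower (23.1% and 24% of all genes), with a median of 1.32. The medians over all genes were 0.03, 0.02 and 0.02. Hyper had 0 higher and 0 lower, as did all genes (0% and 0%), with edgeR, and DESeq2 also called 0. At an unadjusted p under 0.05, 1 member was higher and 2 lower, and the share of all genes at that threshold is not given here. The libraries labelled RemoLV had 22 members higher and 0 lower than Hyper (17% and 18.6% of all genes), and 14 higher and 2 lower than DOX and MYO together (17% and 16.8%). These comparisons share their control libraries. The scale mattered for the size of the changes: with library totals in place of TMM the median log2 fold change of all genes against Control moved by 0.421 (DOX), 0.423 (MYO), 0.503 (libraries labelled RemoLV) and 0.161 (Hyper), and the members called higher were then 22 in DOX, 19 in MYO and 24 in RemoLV. All genes shifted with them under library totals, with 41.5% higher and 5.2% lower in DOX, 40.6% and 5.56% in MYO, and 45.6% and 7.66% in RemoLV, and 28.7% and 5.61% in DOX and MYO over Hyper.

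Doxorubicin and its liposomal form gave collagen levels that were not separated by the test. In DOX against MYO 0 of 30 members were higher and 0 lower, beside 0% and 0% of all genes, with edgeR and with DESeq2 alike. At an unadjusted p under 0.05, 2 members were higher and 0 lower, and the share of all genes at that threshold is not given here. The log2 difference of COL1A1 was 0.12 with a 95% interval from -0.37 to 0.61. That of COL3A1 was -0.03 (-0.46 to 0.40), and that of COL4A2 was -0.10 (-0.33 to 0.12). The table names also gave 0 called in either direction.

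**Figure D3:**
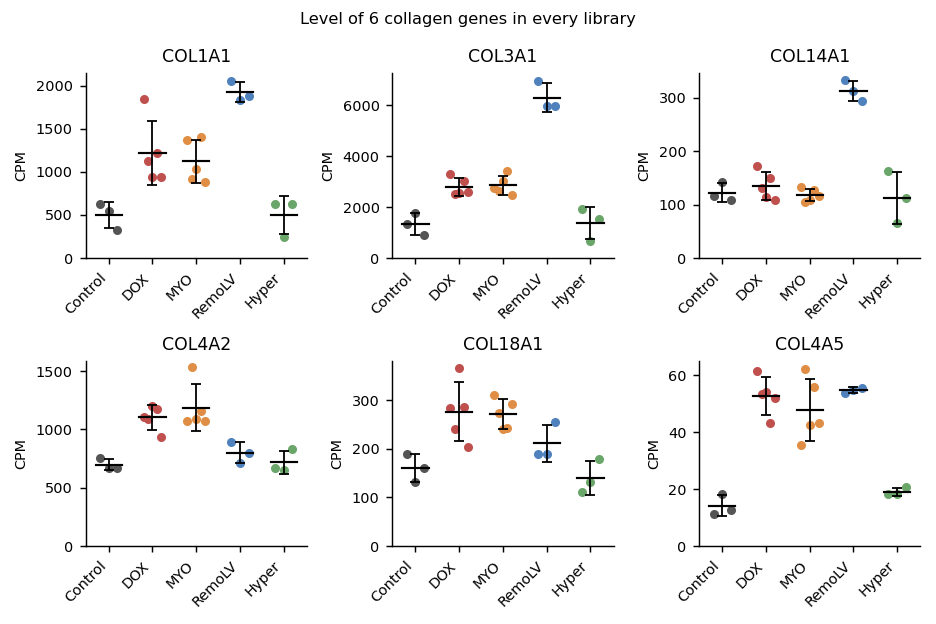
Level in CPM of 6 collagen genes in each of the 19 libraries by count file label, with points for libraries and bars for mean ± SD (n = 3 or 5). COL1A1, COL3A1 and COL14A1 are highest in the libraries labelled RemoLV, whereas COL4A2 is highest in DOX and MYO.

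Types I and III, the main fibre-forming collagens, rose together. COL1A1 (chr12:26379087-26397180), the alpha 1 chain of type I, had 622, 550 and 331 CPM in Control, 1840, 1126, 942, 1222 and 944 in DOX, 1369, 918, 1030, 1402 and 880 in MYO, 2052, 1834 and 1876 in RemoLV, and 622, 246 and 623 in Hyper, listed by replicate number. All 10 anthracycline libraries were above all Control and Hyper libraries, and the libraries labelled RemoLV overlapped only with DOX 1. In edgeR's quasi-likelihood test with Benjamini-Hochberg adjustment the log2 fold change of DOX and MYO over Hyper was 1.23 (SE 0.28, adjusted p 0.00257), a 2.35-fold difference. The log2 difference of RemoLV over DOX and MYO was 0.72 (0.24, 0.0293) and lost its call without RemoLV 1 (0.67), RemoLV 2 (0.75) or RemoLV 3 (0.73). Over Control it was 1.28 in DOX (SE 0.30, adjusted p 0.0024), 1.16 in MYO (0.29, 0.00437) and 1.94 in RemoLV (0.33, 0.000124). By the table names these were -0.56 (adjusted p 0.119), -0.89 (0.0166) and -1.94 (8.05e-05), and RemoLV over DOX and MYO was -1.21 (0.00116).

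COL1A2 (chr9:74174484-74210407), the partner chain of COL1A1, had 509, 496 and 310 CPM in Control, 1226, 795, 744, 996 and 790 in DOX, 1122, 793, 874, 1169 and 668 in MYO, 2268, 1832 and 2033 in RemoLV, and 578, 215 and 547 in Hyper. The groups fell into 3 levels without overlap: Control with Hyper, DOX with MYO, and the libraries labelled RemoLV. The log2 fold change was 1.04 for DOX and MYO over Hyper (SE 0.26, edgeR adjusted p 0.00527) and 1.16 for RemoLV over DOX and MYO (SE 0.23, adjusted p 0.000714). The latter was -1.06 (adjusted p 0.00241) under the table names. The ratio of COL1A1 to COL1A2 per kb was 0.937 ± 0.066 in Control, 1.09 ± 0.106 in DOX, 1.01 ± 0.051 in MYO, 0.928 ± 0.0313 in Hyper and 0.781 ± 0.0425 in the libraries labelled RemoLV.

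COL3A1 (chr15:93556914-93595678), the chain of type III, which forms thinner fibres with type I, had 1336, 1778 and 905 CPM in Control, 3308, 2508, 2569, 3007 and 2600 in DOX, 2741, 2632, 3021, 3417 and 2483 in MYO, 6941, 5980 and 5963 in RemoLV, and 1914, 667 and 1526 in Hyper. It showed the same 3 levels without overlap. The log2 fold change was 1.05 for DOX and MYO over Hyper (SE 0.24, edgeR adjusted p 0.00276), 2.23 for RemoLV over Control (0.29, 9.84e-06) and 1.15 for RemoLV over DOX and MYO (0.21, 0.000339). These last values were -2.23 (adjusted p 9.68e-06) and -1.08 (0.0013) with the table names. Its share of the collagen counts was 43.7% ± 0.656 in the libraries labelled RemoLV and 29.8 to 33.9% as means of the other groups.

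The type V chains, which start and limit the width of type I fibrils, rose in the anthracycline groups but were less set apart in the libraries labelled RemoLV. COL5A1 was at 78.8 to 108 CPM in Control, 180 to 318 in DOX, 209 to 253 in MYO, 309 to 317 in RemoLV and 65.4 to 157 in Hyper. Its log2 fold change was 1.13 for DOX and MYO over Hyper (SE 0.20, edgeR adjusted p 0.00037) and 0.34 for RemoLV over DOX and MYO (0.18, 0.156, interval -0.02 to 0.71). COL5A3 behaved alike, with 0.71 (0.14, 0.000961) and 0.07 (0.13, 0.735, interval -0.20 to 0.33), whereas COL5A2 was higher in both, with 0.82 (0.18, 0.00239) and 0.59 (0.17, 0.0103), of which the second lost its call without RemoLV 1 (0.55). RemoLV over DOX and MYO was -1.35 for COL5A1 (adjusted p 4.15e-05), -0.92 for COL5A3 (5.55e-05) and -0.82 for COL5A2 (0.00117) under the table names. COL5A2 lies beside COL3A1 on chr15.

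COL27A1 and COL24A1, fibrillar chains best known from cartilage and bone, were scarce but high in the libraries labelled RemoLV. COL27A1 (chr1:254768576-254924893) had 4.48, 6.95 and 3.53 CPM in Control, 13.8, 12, 8, 8.62 and 9.16 in DOX, 9.43, 10.3, 10.2, 12.4 and 9.05 in MYO, 30.7, 39 and 24.6 in RemoLV, and 7.15, 5.87 and 7.84 in Hyper. All anthracycline libraries were above Hyper, and those labelled RemoLV were above all others. It had the smallest adjusted p of the family in RemoLV against Control, with a log2 fold change of 2.65 (SE 0.25, edgeR adjusted p 4.33e-07), 1.61 over DOX and MYO (0.17, 1.51e-06) and 0.56 for DOX and MYO over Hyper (0.20, 0.0413). COL24A1 (chr4:129911760-130243177) had 0.523, 0.475 and 0.141 CPM in Control, 1.31, 1.27, 0.733, 1.16 and 0.084 in DOX, 0.792, 0.346, 1.2, 0.519 and 0.169 in MYO, 3.24, 3.55 and 1.07 in RemoLV, and 0.344, 0.602 and 1.34 in Hyper, so RemoLV overlapped with DOX, MYO and Hyper. Its log2 fold change over Control was 2.77 in RemoLV (SE 0.74, adjusted p 0.00494) and 1.26 in DOX (0.71, 0.162). The call of COL27A1 over Hyper was lost without any 1 of 9 libraries (0.46 to 0.66). With the table names COL27A1 was at -2.65 for RemoLV over Control (adjusted p 4.07e-07) and -1.04 over DOX and MYO (0.000731), and COL24A1 was at -2.77 in RemoLV (0.00272) and -1.32 in DOX (0.0662) over Control. COL11A1, the other tested fibrillar gene, was at or below 1.73 CPM in all libraries and was higher in RemoLV than in Hyper by 2.22 (0.65, 0.0123), against 0.77 (0.70, 0.578) under the table names.

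**Figure D4:**
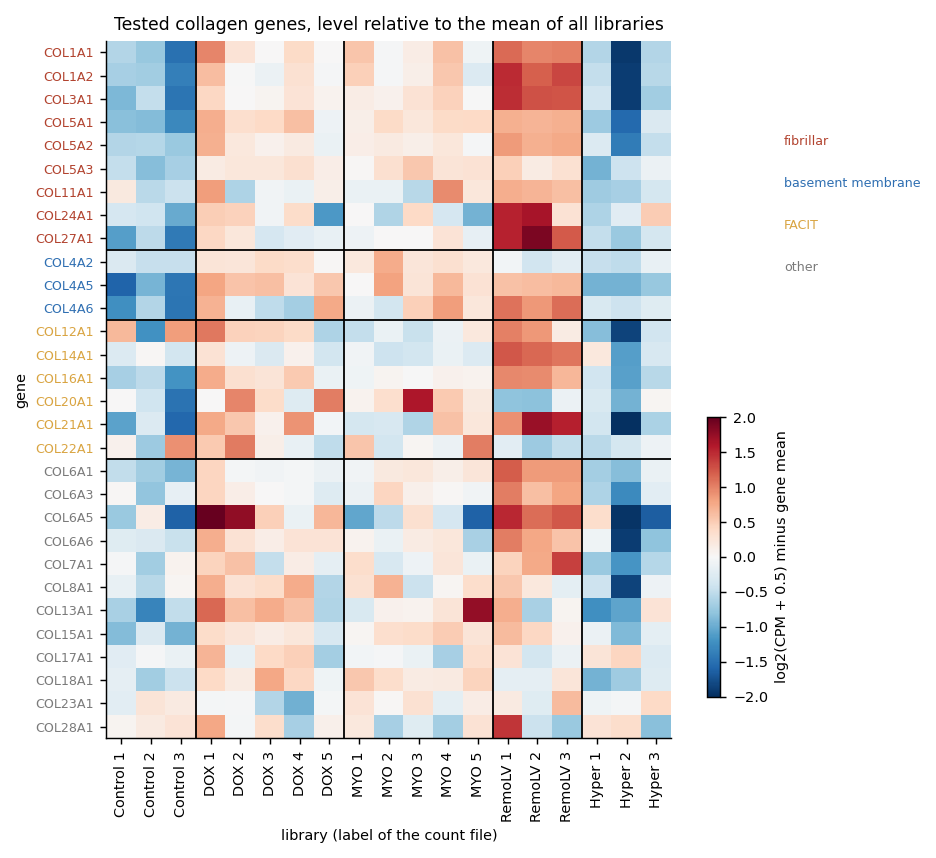
Level of the 30 tested collagen genes (log2 of CPM plus 0.5, minus the gene's mean over 19 libraries) by count file label, with genes ordered by class and colours that end at 2 and -2. Most fibrillar genes are low in Control and Hyper, intermediate in DOX and MYO and high in the libraries labelled RemoLV, while COL4A2 and COL18A1 are highest in DOX and MYO.

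Of the basement membrane genes, COL4A2 departed from that order. COL4A2 (chr11:76996885-77161617), the alpha 2 chain of the ubiquitous type IV network, had 754, 670 and 672 CPM in Control, 1110, 1091, 1204, 1176 and 936 in DOX, 1070, 1539, 1089, 1154 and 1075 in MYO, 892, 710 and 797 in RemoLV, and 671, 652 and 830 in Hyper. All 10 anthracycline libraries were above the other 9. The log2 fold change was 0.67 for DOX and MYO over Hyper (SE 0.12, edgeR adjusted p 0.000503), 0.66 for DOX over Control (0.13, 0.000891), 0.76 for MYO over Control (0.13, 0.000279) and 0.20 for RemoLV over Control (0.15, 0.284, interval -0.10 to 0.49). RemoLV was lower than DOX and MYO by a log2 difference of -0.52 (SE 0.12, edgeR adjusted p 0.00329), the reverse of COL1A1, COL1A2 and COL3A1. COL4A2 was the 1 member called higher than Control in both DOX and MYO under both sets of names, with 0.50 (adjusted p 0.0099) and 0.53 (0.0064) under the table names. By those names RemoLV was at -0.20 over Control (adjusted p 0.293) and -0.71 over DOX and MYO (0.000206).

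COL4A5 (chrX:88958837-89183306) and COL4A6 (chrX:88634925-88750938), X-linked type IV chains of which COL4A5 is mutated in Alport syndrome, were far less abundant than COL4A2. COL4A5 had 11.4, 18.4 and 12.8 CPM in Control, 61.7, 53.3, 54.3, 43.1 and 51.9 in DOX, 35.6, 62.4, 42.5, 55.8 and 43.3 in MYO, 53.7, 54.9 and 55.7 in RemoLV, and 18.2, 18.3 and 20.7 in Hyper. Control and Hyper lay below all other libraries, and RemoLV lay within the range of DOX and MYO. For DOX and MYO over Hyper it had the smallest adjusted p of the family (log2 fold change 1.40, SE 0.17, edgeR adjusted p 7.23e-06). Over Control it was 1.89 in DOX (0.18, 8.84e-07), 1.75 in MYO (0.18, 2.07e-06) and 1.94 in RemoLV (0.20, 8.06e-07). RemoLV and the anthracycline groups differed by 0.12 (0.15, 0.564, interval -0.18 to 0.42). By the table names the values over Control were -0.14 in DOX (adjusted p 0.561), -0.10 in MYO (0.707) and -1.94 in RemoLV (9.27e-07), and RemoLV over DOX and MYO was -1.82 (5.07e-07), so that the difference over Hyper is the 1 that stands under both. COL4A5 is X-linked, DDX3Y separated DOX and MYO from Hyper as well, and its part in this result was not tested.

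COL4A6 had 1.42, 2.49 and 1.13 CPM in Control, 6.8, 3.56, 2.67, 2.32 and 7.14 in DOX, 3.64, 2.98, 5.78, 7.53 and 4.74 in MYO, 9.08, 7.73 and 9.27 in RemoLV, and 3.16, 2.86 and 3.29 in Hyper. The libraries labelled RemoLV were above all others, and DOX overlapped with Control and Hyper. Its log2 fold change over Control was 2.35 in RemoLV (SE 0.43, edgeR adjusted p 0.000265), 1.40 in DOX (0.40, 0.00957) and 1.53 in MYO (0.40, 0.00528), and it was 0.60 for DOX and MYO over Hyper (0.34, 0.192). Its call in DOX was lost without Control 3 (1.18). RemoLV over DOX and MYO was 0.88 (0.30, 0.032) and lost its call without RemoLV 1 (0.85), RemoLV 2 (0.96) or RemoLV 3 (0.83), and was -1.44 (adjusted p 0.0022) as named in the table. The values over Control were -2.35 in RemoLV (adjusted p 0.000115), -1.19 in DOX (0.00934) and -0.63 in MYO (0.151) under the table names.

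Among the FACIT genes COL14A1 and COL16A1 were the most abundant and followed different orders. COL14A1 (chr4:18690197-18925111), which binds decorin on fibril surfaces, had 116, 143 and 108 CPM in Control, 172, 131, 114, 149 and 109 in DOX, 133, 105, 108, 127 and 116 in MYO, 332, 312 and 294 in RemoLV, and 162, 65 and 112 in Hyper. Only the libraries labelled RemoLV stood apart, and the other 4 groups overlapped. Its log2 fold change was 1.31 for RemoLV over DOX and MYO (SE 0.17, edgeR adjusted p 1.42e-05), against 0.14 for DOX over Control (0.21, 0.606) and 0.16 for DOX and MYO over Hyper (0.19, 0.547, interval -0.22 to 0.53). With the table names the first was -0.04 (adjusted p 0.875) and the second -1.16 (0.000199).

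COL16A1 (chr6:88177798-88243718), which bridges fibrils and microfibrils, had 25.6, 28.3 and 17.4 CPM in Control, 68.3, 50.7, 48.7, 59 and 37.2 in DOX, 38.3, 42.1, 40.6, 43.3 and 42.7 in MYO, 79.7, 78.6 and 64.6 in RemoLV, and 31.1, 18.9 and 27.6 in Hyper. Its anthracycline libraries were above all Control and Hyper libraries. The log2 fold change was 0.85 for DOX and MYO over Hyper (SE 0.17, edgeR adjusted p 0.00126) and 0.67 for RemoLV over DOX and MYO (0.16, 0.00313). The second was -0.97 (adjusted p 0.000223) under the table names.

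COL21A1 (chr7:29414851-29609039), a small FACIT of vessel walls, had 1.49, 2.97 and 0.917 CPM in Control, 6.62, 5.6, 3.93, 7.27 and 3.53 in DOX, 2.77, 2.84, 2.26, 5.8 and 4.4 in MYO, 7.39, 13.3 and 11.8 in RemoLV, and 2.75, 0.527 and 2.21 in Hyper. The libraries labelled RemoLV were above all others, although RemoLV 1 exceeded DOX 4 by little. Its log2 fold change over Control was 2.57 in RemoLV (SE 0.49, edgeR adjusted p 0.00039), 1.57 in DOX (0.45, 0.0106) and 0.98 in MYO (0.46, 0.0911). The call in DOX was lost without Control 3 (1.26), and MYO gained one without Control 2 (1.57). By the table names the values were -2.57 in RemoLV (adjusted p 0.00046), -1.04 in DOX (0.059) and -1.53 in MYO (0.00901). COL12A1, COL20A1 and COL22A1 were the other tested FACIT genes. COL20A1 was lower in RemoLV than in DOX and MYO by -1.55 (0.54, 0.0342) at 5.57 CPM or less in every library (-1.42, adjusted p 0.0269, under the table names), and COL12A1 rose over Hyper by 1.09 (0.40, 0.045). COL20A1 lost that call without RemoLV 1 (-1.38) or RemoLV 2 (-1.35), and COL12A1 lost its call without any 1 of 11 libraries (0.77 to 1.12).

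Type VI, the beaded filament collagen of the pericellular matrix, was represented mainly by COL6A1 and COL6A3, since COL6A2 is listed at 0. COL6A5 and COL6A6 had lower means of 3.37 and 22.6 CPM over all libraries. COL6A1 had 250, 216 and 184 CPM in Control, 473, 340, 334, 341 and 324 in DOX, 332, 400, 408, 380 and 415 in MYO, 813, 631 and 635 in RemoLV, and 218, 195 and 318 in Hyper. The 3 levels of COL1A2 were seen again without overlap. COL6A1 had a log2 fold change of 0.62 for DOX and MYO over Hyper (SE 0.15, edgeR adjusted p 0.00454) and 0.89 for RemoLV over DOX and MYO (0.14, 8.16e-05). The second was -0.79 (adjusted p 0.000455) with the table names.

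COL6A3 (chr15:137011549-137103687) had 350, 199 and 310 CPM in Control, 466, 379, 348, 335 and 288 in DOX, 319, 464, 370, 351 and 330 in MYO, 705, 525 and 598 in RemoLV, and 224, 142 and 300 in Hyper. DOX and MYO overlapped with Control, and RemoLV was above all other libraries. The log2 fold change was 0.72 for DOX and MYO over Hyper (SE 0.20, edgeR adjusted p 0.012), 0.34 for DOX over Control (0.22, 0.218), 0.36 for MYO over Control (0.22, 0.198) and 1.09 for RemoLV over Control (0.24, 0.00142). The call over Hyper was lost without Hyper 1 (0.73) or Hyper 2 (0.48). Over Control the table names gave -0.72 in DOX (adjusted p 0.016), -0.76 in MYO (0.0122) and -1.09 in RemoLV (0.00139).

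COL6A5 (chr13:2029543-2174404), a minor type VI chain, was uneven between libraries. It had 1.19, 2.61 and 0.423 CPM in Control, 10.8, 9.16, 3.4, 2.08 and 3.95 in DOX, 0.871, 1.45, 3.03, 1.73 and 0.423 in MYO, 7.53, 5.58 and 6.15 in RemoLV, and 3.09, 0.226 and 0.402 in Hyper. DOX 1 and DOX 2 were above all libraries of the other groups, and the remaining DOX libraries were at 2.08 to 3.95 CPM, near the highest of Control, MYO and Hyper. Its log2 fold change over Control was 2.03 in DOX (SE 0.74, edgeR adjusted p 0.0341), 0.08 in MYO (0.74, 0.941) and 2.15 in RemoLV (0.79, 0.0313), and DOX and MYO differed by 1.94 (0.61, 0.692). The call in DOX was lost without DOX 1 (1.66), DOX 2 (1.82), Control 1 (1.92) or Control 3 (1.60), and that in RemoLV without RemoLV 1 (2.02), RemoLV 3 (2.18), Control 1 (2.04) or Control 3 (1.73). Over Hyper it was 1.25 (0.70, 0.177) and was called without Hyper 1 (3.20). Over Control the table names gave -0.29 in DOX (adjusted p 0.799), -1.59 in MYO (0.119) and -2.15 in RemoLV (0.0544).

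The multiplexins COL15A1 and COL18A1, whose C-terminal fragments are known as restin and endostatin, were at levels near those of type V and VI chains. COL18A1 was at 132 to 190 CPM in Control, 203 to 367 in DOX, 241 to 311 in MYO, 189 to 255 in RemoLV and 111 to 179 in Hyper. Like COL4A2 it was higher in the anthracycline groups, with a log2 fold change of 0.96 over Hyper (SE 0.18, edgeR adjusted p 0.000494), 0.78 for DOX over Control (0.19, 0.0032) and 0.76 for MYO over Control (0.19, 0.00378), while RemoLV over Control was 0.39 (0.21, 0.123) and RemoLV over DOX and MYO was -0.38 (0.17, 0.0953). COL15A1 was 0.59 over Hyper (0.18, 0.0177), and RemoLV and the anthracycline groups differed by 0.17 (0.17, 0.481, interval -0.17 to 0.51). Without Hyper 2 the difference of COL15A1 was 0.38 and no longer called. With the table names COL18A1 was at 0.50 in DOX (adjusted p 0.0381), 0.25 in MYO (0.305) and -0.39 in RemoLV (0.0976) over Control, and RemoLV over DOX and MYO was -0.77 for COL18A1 (0.000934) and -0.90 for COL15A1 (0.000773).

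Of the remaining other types, COL7A1 (anchoring fibrils), COL6A6 and COL8A1 (a network of vessel walls) were higher in DOX and MYO than in Hyper, with log2 fold changes of 0.94 (SE 0.26, edgeR adjusted p 0.00944), 0.93 (0.26, 0.0117) and 0.94 (0.32, 0.0325). Without Hyper 2 these were 0.78, 0.57 and 0.57, and COL8A1 also lost its call without Hyper 1 (1.05). COL7A1 and COL6A6 were higher in RemoLV than in Control, by 1.12 (0.30, 0.00463) and 1.15 (0.31, 0.00518), and lower by -1.12 (adjusted p 0.00302) and -1.15 (0.0061) under the table names. COL13A1, a transmembrane collagen, rose over Control in DOX (1.84, SE 0.66, adjusted p 0.0331) and in MYO (1.81, 0.67, 0.0354). Without Control 1, 2 or 3 neither call held (1.50 to 2.12 in DOX, 1.47 to 2.09 in MYO), nor did that in DOX without DOX 1 (1.62) or DOX 3 (1.79), or that in MYO without MYO 5 (1.16). With the table names COL13A1 was at 0.58 in DOX (adjusted p 0.494) and 0.49 in MYO (0.575). COL17A1, COL22A1, COL23A1 and COL28A1 passed no test between groups. The 11 members that missed the filter (COL2A1, COL11A2, COL4A3, COL4A4, COL9A1, COL9A2, COL9A3, COL8A2, COL10A1, COL25A1 and COL26A1) had at most 21 counts in any library. Among these COL8A2, a partner of COL8A1, had 15, 10 and 15 counts in the libraries labelled RemoLV and at most 6 in any other.

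Under the table names the comparisons with Control turned round, because the 3 libraries with the most collagen then carry the name Control. The DOX group had 2 members higher and 10 lower (15% and 14.6% of all genes), and MYO had 2 higher and 13 lower (14.8% and 14.4%). RemoLV had 0 higher and 18 lower (24% and 23.2%), and Hyper had 0 higher and 21 lower (18.7% and 17.2%). RemoLV had 0 higher and 17 lower than DOX and MYO (24.2% and 23.1%). The members higher in DOX were COL4A2 and COL18A1, and those higher in MYO were COL4A2 and COL20A1. What did not depend on the names was the order of the libraries themselves.

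**Figure D5:**
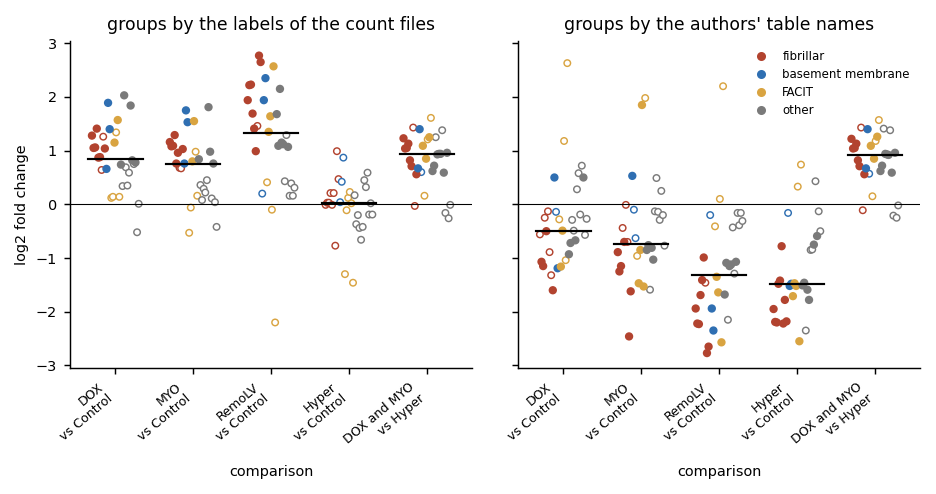
Fold changes on the log2 scale of the 30 tested collagen genes in 5 comparisons with groups by count file label (left) and by table name (right), filled where the adjusted p is at most 0.05, with a line at the median. Medians against Control are 0.85, 0.76, 1.32 and 0.03 on the left and -0.49, -0.73, -1.32 and -1.48 on the right, whereas DOX and MYO against Hyper is 0.94 and 0.93.

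Genes that make, fold and cross-link collagen were mostly higher in the anthracycline groups than in Hyper. Of 33 genes for the synthesis and assembly of collagen, 31 were tested, and 18 were higher and 2 lower in DOX and MYO than in Hyper (19 and 2 under the table names), beside 15.8% and 16.9% of all genes. Against Control 16 were higher and 2 lower in DOX, 15 and 2 in MYO, 14 and 2 in RemoLV, and 0 and 0 in Hyper, beside 21% and 21.1%, 20.7% and 21.7%, 23.1% and 24%, and 0% and 0% of all genes. As named in the table, these counts were 7 and 4, 6 and 5, 2 and 14, and 2 and 13, beside 15% and 14.6%, 14.8% and 14.4%, 24% and 23.2%, and 18.7% and 17.2%. ADAMTS14, a procollagen N-proteinase, was at 1.13 ± 0.0627 CPM in Control, 5.61 ± 3.23 in DOX and 4.76 ± 1.75 in MYO, and its log2 fold change over Hyper was 1.88 (SE 0.42, edgeR adjusted p 0.00238). LOXL2, a lysyl oxidase that cross-links collagen, was at 11.6 to 22.5 CPM in Control, 44.5 to 72.6 in DOX and 44.8 to 68.6 in MYO, and rose over Hyper by 1.64 (0.23, 4.33e-05). LOXL1 rose by 1.62 (0.37, 0.00307). All 3 keep their direction over Hyper under both names.

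In the libraries labelled RemoLV 5 of the 31 were higher and 9 lower than in DOX and MYO, beside 17% and 16.8% of all genes. Under the table names 4 were higher and 15 lower, beside 24.2% and 23.1%. LOX, the founding lysyl oxidase, was at 58.8 to 81.7 CPM in RemoLV, 14.5 to 28.2 in Control, 11.9 to 21.3 in DOX and 12.6 to 16.3 in MYO, lower than Control in MYO by -0.59 (SE 0.23, edgeR adjusted p 0.0451), and a log2 fold change of 2.15 for RemoLV over DOX and MYO (SE 0.18, edgeR adjusted p 6.97e-08). With the table names these were -2.28 (adjusted p 4.35e-07) and 0.51 (0.0391). FKBP10, a collagen chaperone, was higher by 0.80 (0.16, 0.000905) and ADAMTS2 by 0.69 (0.23, 0.0245), against -1.04 (adjusted p 0.000194) and -1.21 (0.000975) under the table names. SERPINH1, the collagen chaperone HSP47, chosen after its values were seen, was lower by -1.03 (0.28, 0.00928) and LOXL2 by -0.95 (0.22, 0.00266), against -0.53 (adjusted p 0.118) and -1.67 (2.2e-05). P4HA1, a prolyl hydroxylase subunit, was lower than Control in DOX by -0.77 (0.29, 0.0407) and in RemoLV by -0.94 (0.33, 0.0267), which became 0.23 (adjusted p 0.602) and 0.94 (0.0273) under the table names. TMEM38B, a channel of the endoplasmic reticulum, was lower than Control by -0.67 in DOX (0.17, 0.00429), -0.97 in MYO (0.17, 0.00025) and -0.82 in RemoLV (0.19, 0.00199), which became 0.09 (adjusted p 0.744), -0.08 (0.792) and 0.82 (0.00329).

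Of 8 tested collagen receptors, 2 were higher and 1 lower than Control in DOX and in MYO, and 4 higher and 1 lower in RemoLV. These counts are of few genes, and the shares of all genes were 21% and 21.1% in DOX, 20.7% and 21.7% in MYO and 23.1% and 24% in RemoLV. By the table names they were 0 and 1 in DOX, 0 and 2 in MYO, and 1 and 4 in RemoLV, beside 15% and 14.6%, 14.8% and 14.4%, and 24% and 23.2% of all genes. MRC2, the endocytic collagen receptor, was at 49.8 ± 7.23 CPM in Control, 89.5 ± 13.2 in DOX, 95.4 ± 13.7 in MYO, 59.1 ± 23.4 in Hyper and 128 ± 27.7 in those labelled RemoLV, and was the receptor called higher in DOX and MYO than in Hyper (log2 fold change 0.64, SE 0.19, edgeR adjusted p 0.0147, under either naming). DDR2, a fibrillar collagen receptor kinase, and ITGA11, an integrin chain that binds type I, were higher than Control in RemoLV by 1.00 (0.39, 0.0444) and 0.98 (0.39, 0.048), and both were lower under the table names (adjusted p 0.037 and 0.0481). ITGA10, an integrin chain of cartilage, was higher than Control by 0.46 in DOX (0.17, 0.0403) and 0.68 in MYO (0.17, 0.00466), against 0.31 (adjusted p 0.195) and 0.46 (0.0583) under the table names. ITGA1, an integrin chain that binds type IV, was lower than Control in DOX by -1.13 (0.27, 0.00286) and in MYO by -1.34 (0.27, 0.000828), against 0.01 (adjusted p 0.981) and -0.29 (0.465).

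Fibroblast markers were mostly not called in the anthracycline groups, and most were called in the libraries labelled RemoLV. Of 10 such markers 0 were higher in DOX and 0 in MYO than in Control, where 1 (PDGFRA) was lower in MYO, 1 (FBLN1) was higher in DOX and MYO than in Hyper, and 7 were higher in RemoLV than in Control. The shares of all genes were 21% higher in DOX, 20.7% higher and 21.7% lower in MYO, 15.8% higher over Hyper and 23.1% higher in RemoLV. By the table names 6 were lower in DOX, 5 in MYO and 7 in RemoLV than in Control, 0 were higher in any of them, and FBLN1 was again the 1 higher over Hyper. The shares of all genes lower than Control were then 14.6% in DOX, 14.4% in MYO and 23.2% in RemoLV. Their summed level was 966 to 1320 CPM in DOX, 1038 to 1178 in MYO, 881 to 1081 in Control, 715 to 1216 in Hyper and 1853 to 2046 in RemoLV. DCN, decorin, was at 341 to 472 CPM in DOX, 397 to 546 in MYO, 361 to 492 in Control and 799 to 917 in RemoLV. Adipocyte and Schwann cell markers were also higher in RemoLV than in DOX and MYO (3 of 3 and 4 of 4, beside 17% of all genes, and 0 of each under the table names), but against Control 1 of each list was called higher (CIDEC and SOX10, beside 23.1% of all genes), and both were lower under the table names. Atrial markers (7 of 7 higher than Control, summed level 9618 to 12948 against 149 to 234 CPM) and ventricular markers (6 of 6 lower, 25126 to 29262 against 50311 to 75112 CPM) moved in the same libraries, beside 23.1% of all genes higher and 24% lower, and with the table names the atrial list was 7 of 7 lower and the ventricular list 6 of 6 higher. BMP10 and IRX4 had at most 3 counts in each of these libraries. The atrial light chains MYL4 and MYL7 were also the 2 of 7 called higher in DOX and MYO than in Hyper under either naming (15.8% of all genes), and the 2 called higher than Control in DOX and in MYO by label. The atrial sum was 1169 to 2466 CPM in DOX, 843 to 1305 in MYO and 313 to 1312 in Hyper, mostly MYL7 at 736 to 2379 CPM in DOX and MYO and 172 to 1229 in Hyper. MYL4 was at 2.3 to 21.9 CPM in DOX and MYO and 0.55 to 1.54 in Hyper. Of the 6 ventricular markers IRX4 was the 1 called in DOX and MYO over Hyper, where it was higher. The part of the fibroblast and chamber markers in the collagen levels was not tested. Of 7 endothelial markers, 3 were higher and 1 lower in DOX and MYO than in Hyper (15.8% and 16.9% of all genes), with a summed level of 835 to 1150 CPM in DOX, 1043 to 1086 in MYO, 851 to 965 in Hyper, 857 to 1042 in Control and 750 to 815 in RemoLV. In RemoLV 1 was higher and 5 lower than in DOX and MYO (17% and 16.8% of all genes), and 1 and 3 under the table names (24.2% and 23.1%). DOX overlapped with Control and Hyper in the summed level, and the part of these markers in the level of COL4A2 was not tested either.

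Other cell type lists moved beside the collagens too. Of 8 smooth muscle and pericyte markers, 3 (CNN1, PDGFRB and CSPG4) were higher and 2 (RGS5 and ABCC9) lower in DOX and MYO than in Hyper under either naming, beside 15.8% and 16.9% of all genes. Their summed level was 739 to 1355 CPM in DOX, 864 to 1075 in MYO, 910 to 1044 in Hyper, 1087 to 1123 in Control and 793 to 1083 in RemoLV. Of 6 leukocyte markers, CD68 and CSF1R were higher and CD163 lower in the same comparison under either naming, with a summed level of 121 to 262 CPM in DOX, 116 to 199 in MYO, 132 to 171 in Hyper, 154 to 205 in Control and 118 to 155 in RemoLV. Of 6 pan-cardiomyocyte markers, 0 were higher and 2 (TNNT2 and TNNC1) lower, again under either naming. Against Control, 2 of these 6 were higher and 4 lower in DOX, 1 and 4 in MYO, and 1 and 5 in RemoLV, beside 21% and 21.1%, 20.7% and 21.7%, and 23.1% and 24% of all genes. These became 3 and 1, 4 and 0, and 5 and 1 by the table names, beside 15% and 14.6%, 14.8% and 14.4%, and 24% and 23.2%. Both mesothelial markers, WT1 and TBX18, were higher than Control in DOX and in MYO, where 21% and 20.7% of all genes were higher (23.9 to 30.8 and 23.1 to 37.5 against 12.3 to 17 CPM summed), WT1 alone by the table names (15% and 14.8% of all genes), and 0 of 2 were called over Hyper (18.4 to 26.2 CPM). The part of these cell types in the collagen levels was not tested.

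The genes outside the family most like COL1A1 by Spearman correlation of log2 CPM over the 19 libraries, which share groups, scaling and depth, were FAM168A (0.954), FKBP10 (0.953), MAGEL2 (0.953), CERCAM (0.944) and KIFC2 (0.944). Within the family the highest were COL1A2 (0.989), COL5A2 (0.951) and COL3A1 (0.949), and COL4A2 was at 0.453. For COL4A2, added after its values were seen, the nearest genes were COLGALT1 (0.956), a galactosyltransferase of collagen hydroxylysine, SEC61A1 (0.937), PHKG2 (0.932), LMO2 (0.928) and LOXL2 (0.923).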

How the data were processed

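Messenger RNA was sequenced from 19 pig myocardium libraries. Per the submitters' processing notes, STAR was the aligner, HTSeq 0.11.1 the counter and Sscrofa11.1 the genome; the authors deposited raw counts per gene for each library. They also deposited a table of log2 normalized values (DESeq2 was named in the processing notes), which was used here only to match its column names to the count files and for gene symbols. Library totals were 9527710 to 20370209 counts, which limits members below about 10 counts.

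Counts were analysed with edgeR 4.0.16 in R 4.3.3 with TMM scaling, filterByExpr and the quasi-likelihood test, in 1 model of the 5 groups in which all 19 libraries share the estimate of spread. P-values were Benjamini-Hochberg adjusted over 13552 genes, and the script was tested on simulated data. CPM used effective library sizes, lengths were those of the longest RefSeq transcript, and sequences, promoters and coordinates came from RefSeq Sscrofa11.1. Intervals are 95% intervals of the log2 fold change. Per the methods, read pairs were counted in union mode with the strand taken into account.

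Values in every library were given for COL1A1, COL1A2 and COL3A1, for the 2 members of highest mean CPM in each class, and for each member called with a log2 fold change of 2 or more in size, or called lower, against Control; values of further members were added after they were seen. The level of COL4A1, which the rule also names, was not analysed here. Of the other lists, up to 3 genes of largest change in each direction called against Control were eligible. Members and lists were chosen with earlier results of these data known. Same-numbered libraries of Control and DOX had correlations of 0.117 to 0.242 in all 3 pairs, and in no other pair of groups were all correlations over 0.1. The labels give no pairing, and these correlations, which were -0.246 to 0.242 over all 32 same-number pairs, were not tested. Alternatives were RLE and library total scaling, other filters, DESeq2 1.42.0, the table names, a replicate block, the fit without the libraries labelled RemoLV and leaving out each library in turn.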

Additional observations from a re-analysis of the deposited data

Results flagged for a closer look

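In groups of 5 libraries, 5 of 60 gene and group combinations had a library far from the others by Dixon's test, which chance gives in about 5% of groups. COL4A2 in MYO 2 was at 1539 CPM, with the other MYO libraries at 1070 to 1154. COL6A1 in DOX 1 was at 473 CPM (others 324 to 341), and COL6A6 in DOX 1 was at 34.7 CPM (22.8 to 25.3). COL13A1 in MYO 5 was at 7.28 CPM (1.35 to 2.25), and COL20A1 in MYO 3 was at 5.57 CPM (1.58 to 2.34).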

How the results depend on the processing

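Which group names were used decided most results against Control. With the names of the authors' table, the members called higher and lower against Control were 2 and 10 in DOX, 2 and 13 in MYO, 0 and 18 in RemoLV, and 0 higher and 21 lower in Hyper, and RemoLV had 0 higher and 17 lower than DOX and MYO and 0 higher than Hyper. Signs turned for these log2 fold changes. In DOX against Control they became -1.07 for COL1A2, -1.15 for COL3A1, -1.19 for COL4A6, -0.50 for COL5A2, -0.93 for COL6A1, -0.49 for COL16A1 and -1.60 for COL27A1. In MYO against Control they became -0.89 for COL1A1, -1.25 for COL1A2, -1.15 for COL3A1, -0.70 for COL5A2, -0.85 for COL6A1, -0.85 for COL16A1 and -1.62 for COL27A1. In RemoLV against Control they became -1.94 for COL1A1, -2.22 for COL1A2, -2.23 for COL3A1, -1.94 for COL4A5, -2.35 for COL4A6, -1.69 for COL5A1, -1.41 for COL5A2, -0.99 for COL5A3, -1.68 for COL6A1, -1.09 for COL6A3, -1.15 for COL6A6, -1.12 for COL7A1, -1.35 for COL14A1, -1.07 for COL15A1, -1.64 for COL16A1, -2.57 for COL21A1, -2.77 for COL24A1 and -2.65 for COL27A1. In RemoLV against DOX and MYO they became -1.21 for COL1A1, -1.06 for COL1A2, -1.08 for COL3A1, -1.44 for COL4A6, -0.82 for COL5A2, -0.79 for COL6A1, -0.97 for COL16A1, -1.28 for COL21A1 and -1.04 for COL27A1. Leaving out each library in turn gave 11 to 20 members higher in DOX and MYO than in Hyper (11 without Hyper 2). It gave 0 to 2 higher and 0 to 1 lower in Hyper against Control, 0 to 1 lower in MYO and 0 to 1 lower in RemoLV against Control (the 1 or 2 each without Control 2), and 1 to 3 lower in RemoLV than in DOX and MYO (1 without RemoLV 1 or RemoLV 2). That last count, 2, was 1 with library totals, 1 with at least 10 counts in every sample and 1 with the replicate block. The shares of all genes called in the refits without 1 library are not given here. These counts therefore cannot show whether collagen genes changed more than all genes. With library totals the summed collagen level was 3546 CPM in Control (4382 with TMM) and 16315 in RemoLV (14405). Without division by length the ratio of COL1A1 to COL1A2 was 1.17 (0.97 with it) and to COL3A1 0.382 (0.296). Over 32 same-number pairs correlations were -0.246 to 0.242 (median 0.00687), and all 3 pairs of Control and DOX were over 0.1. With the replicate block the members higher than Control were 18 (DOX), 14 (MYO) and 20 (RemoLV), and none of the DOX calls against Control named in the text was lost. The shares of all genes called with the block are not given here. Of the 105 gene results 6 lost their call with the block, which were COL12A1 (1.22, adjusted p 0.0552), COL21A1 (1.02, 0.11) and COL27A1 (0.58, 0.055) over Hyper, COL13A1 (1.62, 0.0956) and COL20A1 (1.51, 0.0768) in MYO over Control, and COL20A1 in RemoLV over DOX and MYO (-1.64, 0.0505). Of 105 gene results, 105 kept direction and side of the threshold with RLE scaling and 105 with DESeq2. Members under the count filter limit what depth can show. The cause of these changes was not tested.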
